A study of Arabidopsis thaliana with 12 samples.

Results

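PRK (AT1G32060) and SBPASE (AT3G55800) encode phosphoribulokinase and sedoheptulose bisphosphatase, enzymes of the Calvin cycle in the chloroplast of Arabidopsis thaliana. Each was taken from the array by the platform annotation, as a probe that names exactly 1 gene. This gave 2 probes, 1 for each gene, of 3439 in all, of which 692 name 1 gene, 870 name several and 1877 are unnamed here. Light samples (6) came from wild-type Landsberg plants that spent 30 min in the light following 12 h without it, and dark samples (6) from wild-type Landsberg plants harvested at the end of 12 h in darkness. Total RNA was hybridised, while tissue, plant age and the number of plants behind a sample are not stated in the labels. No group stayed in the dark for the extra 30 min, so an effect of light and an effect of the time that passed cannot be told apart.

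The Calvin cycle fixes carbon dioxide with ATP and NADPH from the light reactions. SBPASE removes a phosphate from sedoheptulose bisphosphate and commits carbon to the regeneration of the acceptor, and PRK makes the acceptor itself, ribulose bisphosphate. Both enzymes are switched on in illuminated chloroplasts when thioredoxin reduces a disulfide bond in the protein, and PRK is held inactive in darkness in a complex with the small protein CP12 and glyceraldehyde phosphate dehydrogenase. The array reads transcripts, not enzyme activity, and a change in RNA per cell cannot be told apart from a change in the share of cells that express the gene.

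The deposited intensities are linear values from 0 to 100 whose scaling is unknown. The highest value was 100 in every dark array and 65.7 to 77.6 in the light arrays. Array medians were 0.666 to 0.687 in light samples and 0.443 to 0.491 in dark samples, so values were compared both as deposited and after quantile normalization, which gives all arrays 1 distribution. Across all probes the median log2 difference of light minus dark was 0.01 after normalization and 0.44 as deposited. Samples with consecutive numbers (1 and 2, 3 and 4, 5 and 6) resembled each other within a group, which no label explains, so values are also given for each such pair. Of 6 green tissue markers 4 had their own probe, with mean intensities of 1.51 to 17.6 in light and 1.36 to 17.5 in the dark, and of 5 root markers none had. After normalization LHB1B2 (an antenna protein of photosystem II) and PSAN (a subunit of photosystem I) were called lower in light, at -1.26 and -0.99, PSBW (of photosystem II) was called higher, at 0.50, and PSBY (of photosystem II) was not called, at -0.06 (log2, limma adjusted p = 8.52e-06, 0.000131, 0.000379 and 0.744). In that comparison 29.0% of all probes were called lower and 23.6% higher. The call of PSBW was not made as deposited (0.08) and turned to lower with centred arrays (-0.46). With centred arrays PSBY was called lower too (-0.38, limma adjusted p = 0.0262), so all 4 were, as were 32.5% of all probes. After normalization these markers thus moved between the groups in both directions, with a median of -0.52. Their part in the result for PRK was not tested.

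PRK signal was lower in light than in the dark. Its deposited intensity was 0.515, 0.520, 0.554, 0.578, 0.561 and 0.520 in light samples 1 to 6, against 0.650, 0.644, 0.734, 0.778, 1.29 and 1.40 in dark samples 1 to 6. The groups did not overlap, and dark samples 5 and 6 stood well above the other 4 dark samples. PRK averaged 0.541 ± 0.0263 in light and 0.916 ± 0.337 in the dark (SD, n = 6 each). Groups without overlap and lower in light were seen for 9.62% of all probes on the deposited values.

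SBPASE signal did not show this fall. Its deposited intensity was 0.784, 0.772, 0.911, 0.756, 0.552 and 0.541 in light samples 1 to 6, against 0.668, 0.573, 0.532, 0.455, 0.415 and 0.488 in dark samples 1 to 6. The groups overlapped, with light samples 5 and 6 the lowest of their group and dark sample 1 the highest of its own. SBPASE averaged 0.719 ± 0.145 in light and 0.522 ± 0.0905 in the dark (SD, n = 6 each). The intensities of different probes depend on the probe as well as on the transcript, so the levels of PRK and SBPASE are not set against each other here, only their light minus dark differences.

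**Figure D1:**
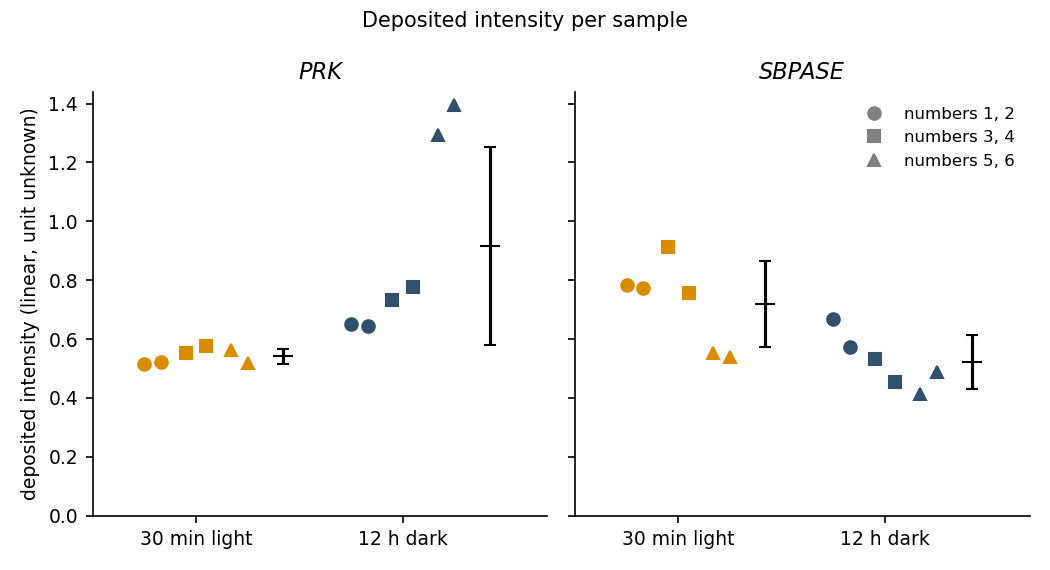
Deposited intensity (linear, unit unknown) of the PRK and SBPASE probes in each sample of the light and dark groups, with marker shapes for the pairs of consecutive sample numbers and the bar giving mean ± SD (n = 6). PRK lies between 0.515 and 0.578 in light, below every dark sample, while the SBPASE groups overlap.

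After quantile normalization the fall of PRK was larger. Its normalized intensity averaged 0.456 ± 0.0161 in light and 1.03 ± 0.322 in the dark (SD, n = 6 each). The log2 difference was -1.12 ± 0.17 (SE), 0.461-fold in light over dark, with a limma adjusted p of 9.94e-05. In that comparison 29.0% of all probes were called lower in light and 52.5% in either direction, so a call on its own does not set PRK apart. By size, 6.34% of all probes and 5.06% of those naming 1 gene had a lower difference than PRK.

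SBPASE did not pass the test after normalization. Its normalized intensity averaged 0.614 ± 0.126 in light and 0.630 ± 0.112 in the dark (SD, n = 6 each). The log2 difference of -0.05 ± 0.15 (SE) had a limma adjusted p of 0.820. The 95% confidence interval of this difference ran from -0.38 to 0.29 in this fit, which takes the samples as independent. With consecutive numbers averaged it ran from -0.56 to 0.47. A shift of either sign within these limits is not excluded. As deposited the difference was 0.46, above the first interval. In the order of all probes by difference SBPASE lay near the middle, with 46.9% of them lower.

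**Figure D2:**
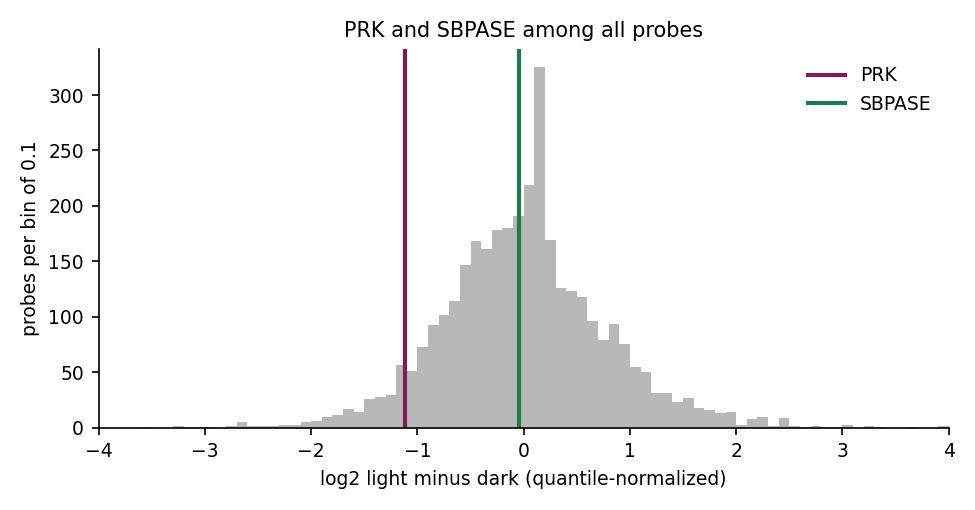
Histogram of the log2 difference of light minus dark after quantile normalization for all 3439 probes, in bins of 0.1, with vertical lines at PRK and SBPASE. PRK at -1.12 lies in the lower tail, with 6.34% of probes below it, and SBPASE at -0.05 lies near the centre.

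The scaling decided the sign for SBPASE but not for PRK. As deposited, PRK differed by -0.68 ± 0.19 (log2 ± SE, limma adjusted p = 0.00687), where 13.9% of all probes were called lower. With cyclic loess it differed by -1.16 (limma adjusted p = 0.000303), where 27.4% of all probes were called lower. With each array centred on its median it differed by -1.22 (limma adjusted p = 0.000135), where 32.5% were. SBPASE as deposited differed by 0.46 ± 0.15 (log2 ± SE). It was called higher in light there (limma adjusted p = 0.0199), as were 49.9% of all probes. That value lies next to the shift of 0.44 shown by the median probe on the same scale. With loess and with centred arrays SBPASE stood at -0.06 and -0.08, neither called.

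Ranks within each array do not depend on any scaling that keeps the order of probes. PRK held the 36.0, 36.7, 38.4, 39.9, 40.4 and 37.2 percentile of all probes in light samples 1 to 6, against the 68.0, 66.6, 70.6, 73.4, 87.9 and 90.0 percentile in dark samples 1 to 6. Counted from the brightest probe, its place was 2051 to 2201 of 3439 in light and 346 to 1150 in the dark. PRK thus lay below the median probe of every light array and above that of every dark array. The share of all probes with ranks parted in this way was not counted, so the separation does not set PRK apart. The mean percentile was 38.1 ± 1.77 in light and 76.1 ± 10.3 in the dark (SD, n = 6 each). The difference was -38.0 percentile points (exact two-sided permutation test, p = 0.00216, which is the lowest possible with 924 assignments, and 0.00577 after Benjamini-Hochberg adjustment over the 4 such tests run). With light and dark paired by sample number, an exact sign-flip test gave p = 0.0313. That is the lowest possible with 64 sign patterns, and it was 0.0417 after Benjamini-Hochberg adjustment.

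SBPASE kept a middle rank in both groups. It held the 58.3, 57.3, 67.8, 56.1, 39.6 and 39.1 percentile in light samples 1 to 6, against the 69.2, 61.1, 54.4, 45.6, 44.2 and 53.2 percentile in dark samples 1 to 6. The ranges overlapped almost wholly, and light samples 5 and 6 were again the lowest. The mean percentile was 53.0 ± 11.4 in light and 54.6 ± 9.46 in the dark (SD, n = 6 each), a difference of -1.61 points (exact two-sided permutation test, p = 0.779, adjusted p = 0.779). The sign of this small difference turned when light sample 5, light sample 6 or dark sample 1 was left out, at 1.07, 1.17 and 1.31 points.

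**Figure D3:**
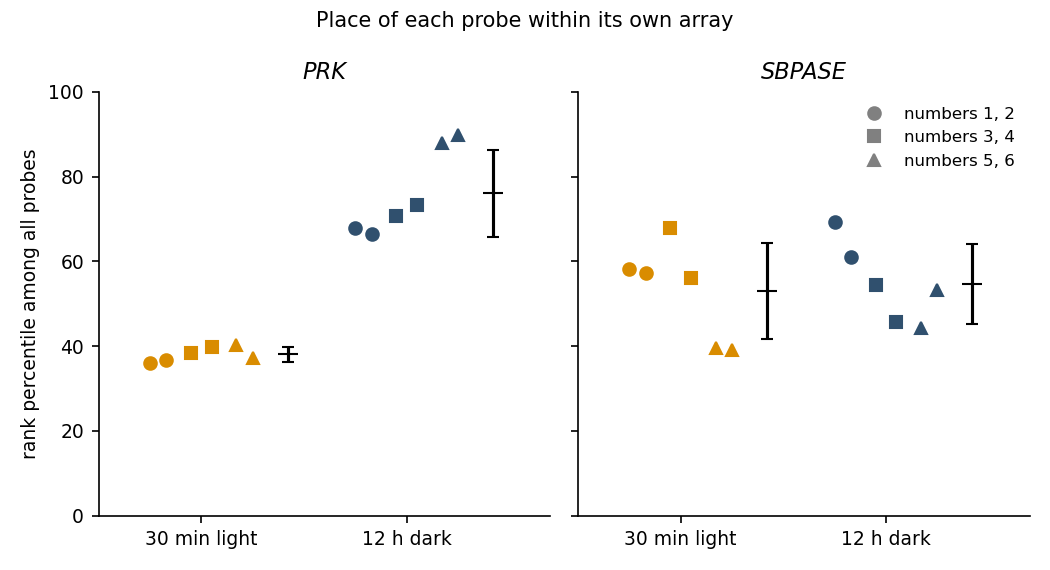
Rank of the PRK and SBPASE probes among all 3439 probes of their own array, as a percentile from 0 (dimmest) to 100 (brightest), per sample, with mean ± SD (n = 6). PRK lies at 36.0 to 40.4 in light and 66.6 to 90.0 in the dark, and SBPASE at 39.1 to 67.8 in light and 44.2 to 69.2 in the dark.

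Set against each other at equal sample numbers, light samples were lower for PRK at all 6 numbers. The normalized log2 differences of light minus dark were -0.86, -0.80, -0.87, -0.91, -1.52 and -1.75 for numbers 1 to 6. The differences at numbers 5 and 6 were the largest in size, where the dark values of PRK were highest. Lower values in light at all 6 numbers were found for 27.9% of all probes after normalization. As deposited the PRK differences were -0.33, -0.31, -0.41, -0.43, -1.20 and -1.42 on the log2 scale, again all below 0, as for 15.0% of all probes.

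Averaged over consecutive numbers, the normalized PRK difference was -0.83 for numbers 1 and 2, -0.89 for 3 and 4, and -1.63 for 5 and 6. With these averages as samples, 3 against 3, PRK was still called after normalization (limma adjusted p = 0.0148), as were 34.9% of all probes. With the sample number as a replicate block it was called too (limma adjusted p = 0.000287), as were 60.2%. On the deposited values the pairs gave -0.32, -0.42 and -1.31, and with 3 against 3 PRK missed the threshold (log2 difference -0.68 ± 0.27 (SE), limma adjusted p = 0.0732), where 41.6% of all probes were called. On both scales the difference was largest in size in the pair that holds dark samples 5 and 6.

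The SBPASE differences had mixed signs after normalization, at -0.29, -0.10, 0.35, 0.27, -0.13 and -0.38 for numbers 1 to 6 on the log2 scale. Only numbers 3 and 4 were higher in light. As deposited all 6 were above 0, at 0.23, 0.43, 0.78, 0.73, 0.41 and 0.15, which was so for 43.7% of all probes. By pair the normalized differences were -0.20, 0.31 and -0.26, so numbers 3 and 4 stood apart from the rest on both scales.

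**Figure D4:**
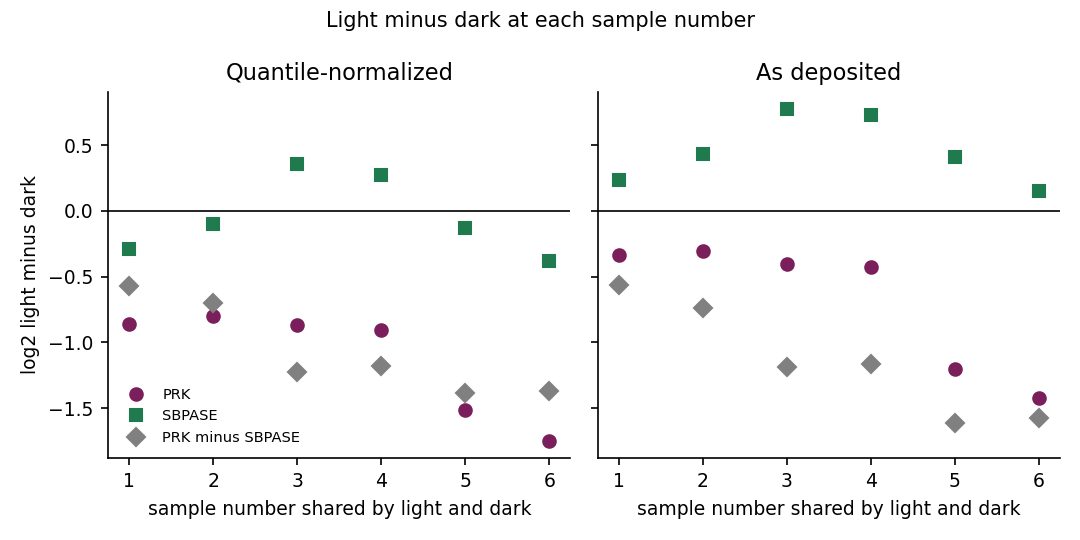
Log2 difference of light minus dark at each sample number for PRK, SBPASE and their contrast (PRK minus SBPASE), after quantile normalization on the left and as deposited on the right. PRK and the contrast lie below 0 at all 6 numbers in both panels, whereas SBPASE lies on both sides of 0 on the left and above it on the right.

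The contrast between the genes was tested on the ratio of PRK to SBPASE within each array, in which a factor common to the array cancels. The ratio of deposited intensities was 0.658, 0.674, 0.608, 0.764, 1.02 and 0.962 in light samples 1 to 6, against 0.973, 1.12, 1.38, 1.71, 3.11 and 2.86 in dark samples 1 to 6. Light sample 5 lay above dark sample 1, and otherwise all light ratios were below all dark ratios. The mean ratio was 0.780 ± 0.170 in light and 1.86 ± 0.912 in the dark (SD, n = 6 each).

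The light minus dark difference of PRK was lower than that of SBPASE by 1.07 on the log2 scale after normalization, written as a contrast of -1.07 (exact two-sided permutation test, p = 0.00433, adjusted p = 0.00577). As deposited the contrast was -1.14 (exact two-sided permutation test, p = 0.00433, adjusted p = 0.00577). It was below 0 at all 6 numbers, and by pair it was -0.64, -1.20 and -1.38 after normalization and -0.65, -1.17 and -1.59 as deposited. Without numbers 3 and 4 in both groups, 4 against 4, the normalized contrast was -1.02 and no longer passed (exact permutation test, p = 0.0571). The tests of the contrast likewise take samples as independent. With consecutive numbers averaged, 3 against 3, they could not fall below 0.05. A ratio shows unequal change of the 2 signals and does not say which of them stayed level.

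The genes also differed in how much their samples spread. In light PRK had a normalized log2 SD of 0.05, and 7.85% of all probes had a smaller one, against a median of 0.18 over all probes. In the dark its SD was 0.42, with 71.2% of probes smaller and a median of 0.30. SBPASE had an SD of 0.30 in light, with 79.7% of probes smaller, and 0.25 in the dark, with 38.2% smaller. Means of consecutive pairs spanned 0.08 for PRK and 0.61 for SBPASE in light, and 0.87 for PRK and 0.43 for SBPASE in the dark (log2). The median span over all probes was 0.31 in light and 0.52 in the dark. PRK thus spanned less than the median probe in light and more in the dark, and SBPASE more in light and less in the dark.

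Of 23 other enzymes and regulators of the Calvin cycle, from the carboxylase and its activase to CP12, none had a probe that names it alone, so the rest of the cycle is not described here. The thioredoxin system that activates PRK and SBPASE had 2 of 16 members measured, of which 0 rose, 1 fell and 1 was not called, where 23.6% of all probes were called higher and 29.0% lower. With 2 members of unlike difference, this count says nothing about the system as a whole.

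AT2G04700, placed on that list from general knowledge and without a descriptive name in the TAIR10.1 table, was lower in light. Its deposited intensity was 0.416, 0.384, 0.316, 0.403, 0.315 and 0.299 in light samples 1 to 6, against 0.851, 0.764, 0.467, 0.482, 0.529 and 0.657 in dark samples 1 to 6. The groups did not overlap, as deposited, as for 9.62% of all probes that were lower in light. The normalized log2 difference was -1.27 ± 0.16 (SE) with a limma adjusted p of 2.93e-05. AT2G04700 was called lower under all 4 scalings, where 13.9% to 32.5% of all probes were called lower. NTRC (AT2G41680), the NADPH-dependent thioredoxin reductase that carries its own thioredoxin domain, averaged 0.889 ± 0.0787 in light and 0.710 ± 0.149 in the dark (SD, n = 6 each). Its groups overlapped, and after normalization it differed by -0.10 ± 0.12 (log2 ± SE, limma adjusted p = 0.487). As deposited it differed by 0.35 (limma adjusted p = 0.0450) and was called higher, as were 49.9% of all probes, but the value lay below the shift of 0.44 of the median probe. The call was lost with consecutive numbers averaged (limma adjusted p = 0.206). NTRC, like SBPASE, depended on the scaling for its sign.

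Among 8 other chloroplast enzymes listed from general knowledge as under thioredoxin control, 2 were measured and both rose. AT5G58330, the NADP-dependent malate dehydrogenase, averaged 6.02 ± 0.499 in light and 0.884 ± 0.394 in the dark (SD, n = 6 each), or 2.91 ± 0.27 on the normalized log2 scale (SE), with a limma adjusted p of 1.63e-06. AT3G52960, placed on the list as a peroxiredoxin from general knowledge, differed by 1.60 ± 0.20 (log2 ± SE, limma adjusted p = 2.58e-05). Measured enzymes listed as thioredoxin-regulated, PRK and SBPASE included, therefore comprised 1 that fell, 1 not called and 2 that rose after normalization. How thioredoxin acts on AT3G52960 may differ from its action on PRK and SBPASE. Of all probes 23.6% were called higher and 29.0% lower.

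**Figure D5:**
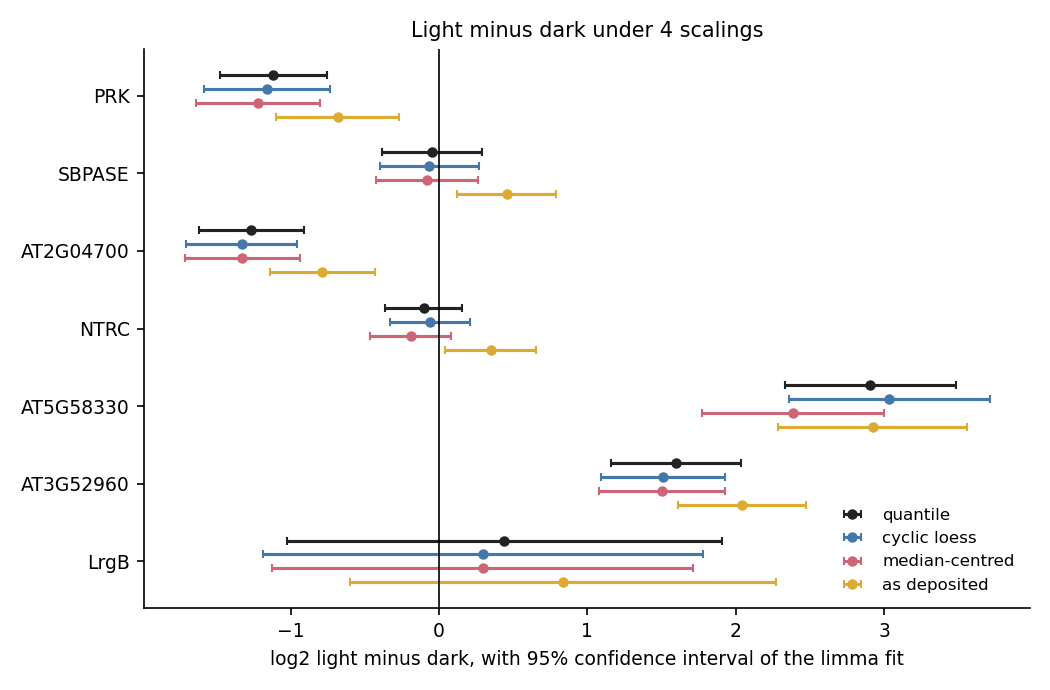
Log2 difference of light minus dark with its 95% confidence interval from limma (n = 6 each) under 4 scalings, for PRK, SBPASE and the measured genes of the thioredoxin and photorespiration lists. PRK and AT2G04700 lie below 0 and AT5G58330 and AT3G52960 above 0 under all 4, while SBPASE and NTRC lie above 0 only as deposited and the intervals of LrgB span 0.

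The probes most like PRK over the normalized values of the 12 samples, among 496 that name 1 other gene and are not dim, were AT4G05070 (Pearson r = 0.96), LPA19 (r = 0.95) and AT4G20760 (r = 0.95). LPA19 (AT1G05385) is a factor needed for accumulation of photosystem II. Their normalized log2 differences of light minus dark were -1.08, -0.79 and -0.38, values that the choice by likeness to PRK over both groups already fixes in sign and that are given as a description. As deposited they stood at -0.66, -0.33 and 0.08, and AT4G20760 was not called there. With the group means taken out, they correlated with PRK at 0.80, 0.73 and 0.83. AT4G05070 had 1.02 and 1.16 in dark samples 5 and 6, against 0.751 to 0.846 in dark samples 1 to 4, so dark samples 5 and 6 were its highest, as for PRK. The probes were chosen on these same 12 samples, so neither these correlations nor the shared high samples are separate support.

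The probes most like SBPASE were AT5G17630 (Pearson r = 0.80), AT4G13220 (r = 0.74) and AT1G61990 (r = 0.73), with normalized log2 differences of 0.07, -0.08 and 0.06, likewise given as a description. As deposited they stood at 0.48, 0.38 and 0.52, near the shift of 0.44 of the median probe. With the group means taken out, they correlated with SBPASE at 0.84, 0.73 and 0.73, again over the same samples that chose them. PRK and SBPASE themselves correlated at -0.08 over the 12 samples, and at -0.37 with the group means taken out. These correlations describe probes that share the same arrays, the same pairs of consecutive numbers and, for PRK, the direction of the normalized light and dark difference.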

How the data were processed

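Arabidopsis RNA was hybridised in 6 light and 6 dark samples, grouped and numbered from their titles. The deposited table holds intensities, and what the authors did to scan, scale or correct them is not given in the sources used here. Depth does not apply to arrays, so the number of samples limits the precision.

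Intensities were quantile-normalized, floored in each column at the 5th percentile of its values above 0 and put on the log2 scale. Light was compared with dark by limma 3.58.1 in R 4.3.3 (lmFit and eBayes, 6 against 6, no block) over all 3439 probes. The fit was tried on simulated data with independent samples. That trial cannot vouch for p-values here, where samples with consecutive or equal numbers resembled each other. A probe counted as called at a Benjamini-Hochberg adjusted p below 0.05. Percentiles and ratios were compared by exact permutation of the samples (scipy 1.17.1). Alternatives changed the scaling, floor, filter, block and samples.

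Symbols came from the platform annotation, and 690 of 692 probes that name 1 gene matched the TAIR10.1 table. Genes named are PRK, SBPASE, all measured members of the lists and, for each of PRK and SBPASE, the 3 most correlated probes naming 1 gene above the 25th percentile of level. The genes and lists were chosen with earlier results of these data known.

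Light and dark samples of the same number deviated together from their group means (correlation across probes 0.41 to 0.65). The title numbers were therefore taken to pair them in the comparisons by number, the replicate block and the sign-flip tests. The main fit and the exact permutation tests did not use this pairing. What the numbers mean is not labelled. Nothing says that samples came from separate plants, so p-values measure the spread between samples, which may be technical.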

Additional observations from a re-analysis of the deposited data

Results flagged for a closer look

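Among 46 groups of 6 values examined, 1 had an isolated sample, where chance gives about 1 in 20. LHB1B2, an antenna protein gene of photosystem II used as a green tissue marker, reached 4.45 (normalized log2) in dark sample 6, while its remaining dark values ran from 3.77 to 4.02. No group of values of PRK, SBPASE or their ratio held such a sample, although dark samples 5 and 6 of PRK lay together above the other 4.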

How the results depend on the processing

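The fall of PRK kept its direction under all 28 alternatives and its call under 27, the exception being the deposited values with consecutive numbers averaged (-0.68, limma adjusted p = 0.0732), an alternative chosen after seeing the data. Leaving out 1 sample at a time gave -1.18 to -0.99 for PRK, -0.126 to 0.030 for SBPASE, -1.20 to -0.92 for the contrast (all log2), -39.9 to -35.2 percentile points for the rank of PRK and -4.57 to 1.31 points for that of SBPASE, and 1688 to 1818 probes called. SBPASE turned positive as deposited (0.46, limma adjusted p = 0.0199), as deposited with numbers averaged (0.46, limma adjusted p = 0.123, not called), for both groups without numbers 1 and 2 (0.028) and for both groups without numbers 5 and 6 (0.061). The contrast was -1.02 without numbers 3 and 4 and passed under the other alternatives with a test, on p-values not adjusted for the number of tests. Without numbers 1 and 2, and without numbers 5 and 6, it passed at p = 0.0286 (exact permutation test). That is the lowest possible with 4 against 4. With numbers averaged, 3 against 3, an exact test of ranks or ratios cannot go below 0.10. Probes called were 1807, against 1199 with numbers averaged, 1077 among probes above the median level, and 2069 with the replicate block. The replicate block (PRK limma adjusted p = 0.000287, SBPASE 0.743, contrast exact sign-flip p = 0.0313) changed no call of PRK, SBPASE or their contrast. As deposited 1715 probes were higher and 479 lower, against 811 and 996 after normalization. Filters on dim probes, the random block and the variance trend were not run for the contrast, since they leave its values as they are. The causes were not tested.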

Other observations

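Photorespiration, which recycles the product of the oxygenase reaction of the Calvin cycle carboxylase, had 1 of 11 listed genes measured alone. LrgB (AT1G32080), the plastid glycolate and glycerate transporter, had deposited intensities of 0.288, 0.277, 1.20, 1.08, 1.49 and 1.20 in light samples 1 to 6, against 0.0766, 0.121, 0.904, 0.821, 0.520 and 1.095 in dark samples 1 to 6. Numbers 1 and 2 were the lowest of both groups. Light was higher at all 6 numbers as deposited, as for 43.7% of all probes, and at 5 after normalization. The log2 difference of 0.44 ± 0.67 (SE) was not called (limma adjusted p = 0.608), nor with the replicate block, where it was 0.44 ± 0.18 (SE, limma adjusted p = 0.0668).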
